A study of Homo sapiens with 39 samples.

Results

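The clustered protocadherins were examined in 39 RNA-seq libraries of A375 and WM115, which are established human melanoma lines. The set holds every protein-coding gene of the gene table named PCDHA, PCDHB or PCDHG with a member number or a C-type suffix, and it came to 53 of 60671 genes: 15 in the alpha cluster, 16 in the beta cluster and 22 in the gamma cluster. All 53 lie on the plus strand of chromosome 5 between 140786136 and 141512981 (GRCh38, GENCODE 29), with alpha from 140786136 to 141012347, beta from 141051135 to 141249365 and gamma from 141330571 to 141512981. For each line the labels give wild-type cells (WT) and clones that lack a regulatory region of SOX10, R1 in clones 1.1 and 1.2 and R4 in clones 4.1 and 4.2. A375 gave 4 WT libraries, 3 of clone 1.1, 4 of clone 1.2, 4 of clone 4.1 and 3 of clone 4.2. WM115 gave 4 WT libraries, 5 of clone 1.1, 3 of clone 1.2, 3 of clone 4.1, 3 of clone 4.2 and 3 of clone 1.3, whose title points to R1 and whose genotype label reads R4_del. Each clone is 1 derived line, and whether the WT cells were a clone or a mixed population is not given in the labels. All values are TPM, a relative abundance corrected for transcript length, so levels of different genes can be compared. The libraries of a clone repeat that clone and no label ties them to separate cultures, so the p-values below measure the spread between these libraries, which may be technical.

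Clustered protocadherins are adhesion proteins of the cadherin superfamily, best known from neurons. Each alpha and gamma gene has a large first exon of its own with its own promoter, and that exon is joined to constant exons shared by the whole cluster, while beta genes are mostly made of a single coding exon. In neurons each cell switches on its own few promoters, a choice that involves CTCF, cohesin and DNA methylation, and the resulting proteins bind the same isoforms on neighbouring cells, which lets a neuron tell its own branches from those of others. The C-type members PCDHAC1, PCDHAC2, PCDHGC3, PCDHGC4 and PCDHGC5 stand at the ends of the alpha and gamma clusters and are used more broadly than the alternate members. In cloned cell lines the chosen set can be passed on through cell division, and so the comparison asked whether clones of a line differ in which members are on or off.

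Promoter windows of members named below are shown as examples of a shared element, and they were chosen because they hold it. PCDHGA1, PCDHGA9, PCDHGA10 and PCDHGB2, which also separated clones, do not hold the longer form marked here, and PCDHGA3 holds it and is not shown. A promoter (250 bases before and 50 after the RefSeq start, GRCh38.p14) was matched for 47 of the 53 members. PCDHA3, PCDHA13, PCDHB6, PCDHB11, PCDHGA12 and PCDHGC5 had no match. Each window below reads 5′ to 3′ on the plus strand, and capitals mark CGCTGT, any 3 bases and CCA in the alpha and gamma genes and GGCGCT in the beta genes.
PCDHA1 (chr5:140786087-140786128): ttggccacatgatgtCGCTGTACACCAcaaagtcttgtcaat
PCDHA6 (chr5:140827898-140827939): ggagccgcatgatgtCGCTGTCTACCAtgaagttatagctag
PCDHA10 (chr5:140855842-140855883): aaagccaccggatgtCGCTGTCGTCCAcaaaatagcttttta
PCDHGA2 (chr5:141338704-141338745): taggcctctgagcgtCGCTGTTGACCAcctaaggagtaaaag
PCDHGB1 (chr5:141350026-141350067): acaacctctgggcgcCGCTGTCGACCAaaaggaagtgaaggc
PCDHGB5 (chr5:141397864-141397905): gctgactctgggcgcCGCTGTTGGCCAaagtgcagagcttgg
PCDHGC3 (chr5:141475881-141475922): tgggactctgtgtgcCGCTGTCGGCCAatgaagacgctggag
PCDHB8 (chr5:141177776-141177817): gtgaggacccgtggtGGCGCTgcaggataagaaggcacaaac
PCDHB12 (chr5:141208642-141208683): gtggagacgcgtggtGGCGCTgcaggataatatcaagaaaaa

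All motifs were searched on both strands, and CGCT is contained in both longer motifs. CGCT, the core of the element known from protocadherin promoters, was in 46 of the 47 member promoters (97.9%) and in 70.0% of the 35116 promoters of the reference table. The longer form, CGCTGT followed by any 3 bases and CCA, was written down after these sequences were seen and has no test. It was in 18 of 47 (38.3%) and in 0.310% of all promoters. It was found in 6 of 13 alpha, 12 of 20 gamma and 0 of 14 beta promoters, in each case on the gene's own strand and beginning 38 to 95 bases before the RefSeq start. GGCGCT was in 13 of 14 beta promoters, 9 of 20 gamma promoters and 1 of 13 alpha promoters, beside 21.7% of all promoters. TATAAA was in 6 of 47 (12.8%) beside 11.5% of all, and a reduced CTCF core (CC, any 3 bases, AG, any 2 bases, GGC) was in 1 of 47 (2.13%) beside 10.6%. An exact match to this core leaves out CTCF sites that differ from it, so the count cannot say how many promoters hold a CTCF site. These matches describe the letters in the window and no binding was measured.

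The libraries held between 14084 and 16140 genes at a TPM of at least 1, and the mitochondrial share of TPM ran from 0.968% to 4.92% for A375 and from 4.71% to 19.4% for WM115. Of a list of 10 melanoma markers, 6 had a mean TPM of at least 1 in A375 WT and 10 in WM115 WT. WM115 WT thus carried the whole list and A375 WT only a part of it. TYR was listed at 0 in every A375 WT library. The neuron list of 5 genes summed to 6.26 to 9.17 TPM in A375 WT and to 1.28 to 2.16 TPM in WM115 WT. Library 3 of WM115 clone 1.2 stood apart, with SOX10 at 9.56 TPM beside 449 to 553 TPM in WT. Library 2 of WM115 clone 1.3 was nearer to clone 1.2 than to its own group: over the 16 members tested it correlated with the clone 1.2 libraries at 0.984 to 0.995 and with the other clone 1.3 libraries at 0.924 to 0.962, as a description over genes of shared libraries. Results of clones 1.2 and 1.3 are given with and without these 2 libraries.

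A375 and WM115 used different parts of the locus. In A375 all 3 clusters were expressed. In WM115 the alpha and beta clusters were near 0 and the gamma sum was high, mostly through PCDHGC3. The summed alpha level in WT was 53.7 ± 3.94 TPM (SD, n = 4) in A375 and 1.26 ± 0.400 TPM (SD, n = 4) in WM115. The summed beta level in WT was 74.9 ± 8.34 TPM in A375 and 4.11 ± 1.62 TPM in WM115. The summed gamma level in WT was 108 ± 13.2 TPM in A375 and 244 ± 31.7 TPM in WM115. Over all libraries the alpha sum ran from 26.6 to 73.0 TPM in A375 and from 0.286 to 4.41 TPM in WM115. The lines did not overlap in any of the 3 sums. Without PCDHGC3 the gamma sum in WT was 35.3 ± 8.44 TPM in A375 and 41.9 ± 8.36 TPM in WM115. Over all libraries that remainder ran from 13.25 to 46.9 TPM in A375 and from 30.6 to 94.7 TPM in WM115, so there the lines overlapped.

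**Figure D1:**
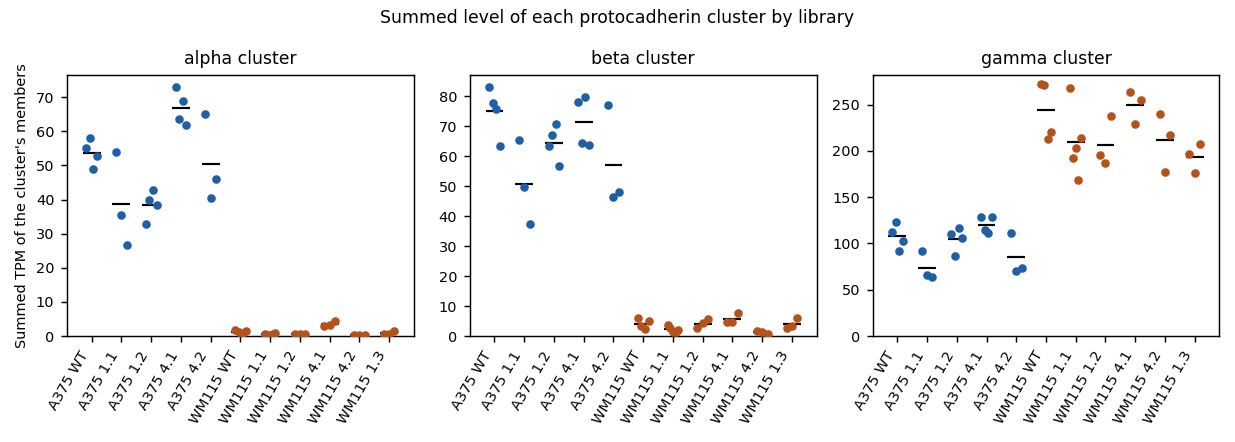
Summed TPM of the alpha, beta and gamma members (vertical axes, linear, starting at 0) in each of the 39 libraries (points) by group, with the group mean as a bar; A375 is blue and WM115 is orange. Alpha and beta sums are high only in A375, and every WM115 library lies above every A375 library in the gamma panel.

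Every A375 library lay above every WM115 library for 24 of the 53 members, 14 of 15 in alpha, 9 of 16 in beta and, in gamma, PCDHGA7; 5.37% of all 18402 genes tested in either line separated the lines in that direction. Every WM115 library lay above every A375 library for PCDHGC3 and PCDHGA11, beside 3.86% of all genes. PCDHGA11 is an alternate gamma member of the A subfamily. It was at 14.8 ± 2.08 TPM (SD, n = 4) in WM115 WT and at 0.479 ± 0.248 TPM (SD, n = 4) in A375 WT, and it stayed between 12.0 and 22.7 TPM in all WM115 libraries. The leading alternate members in A375 WT were PCDHB2 at 14.3 ± 1.5 TPM, PCDHA6 at 13.7 ± 1.24 TPM and PCDHB5 at 13.1 ± 2.23 TPM. In WM115 WT these 3 were at 0.120 ± 0.0842, 0.134 ± 0.0971 and 0.534 ± 0.372 TPM. Lines differ in origin, and the line comparison has no replication beyond 1 line of each kind.

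**Figure D2:**
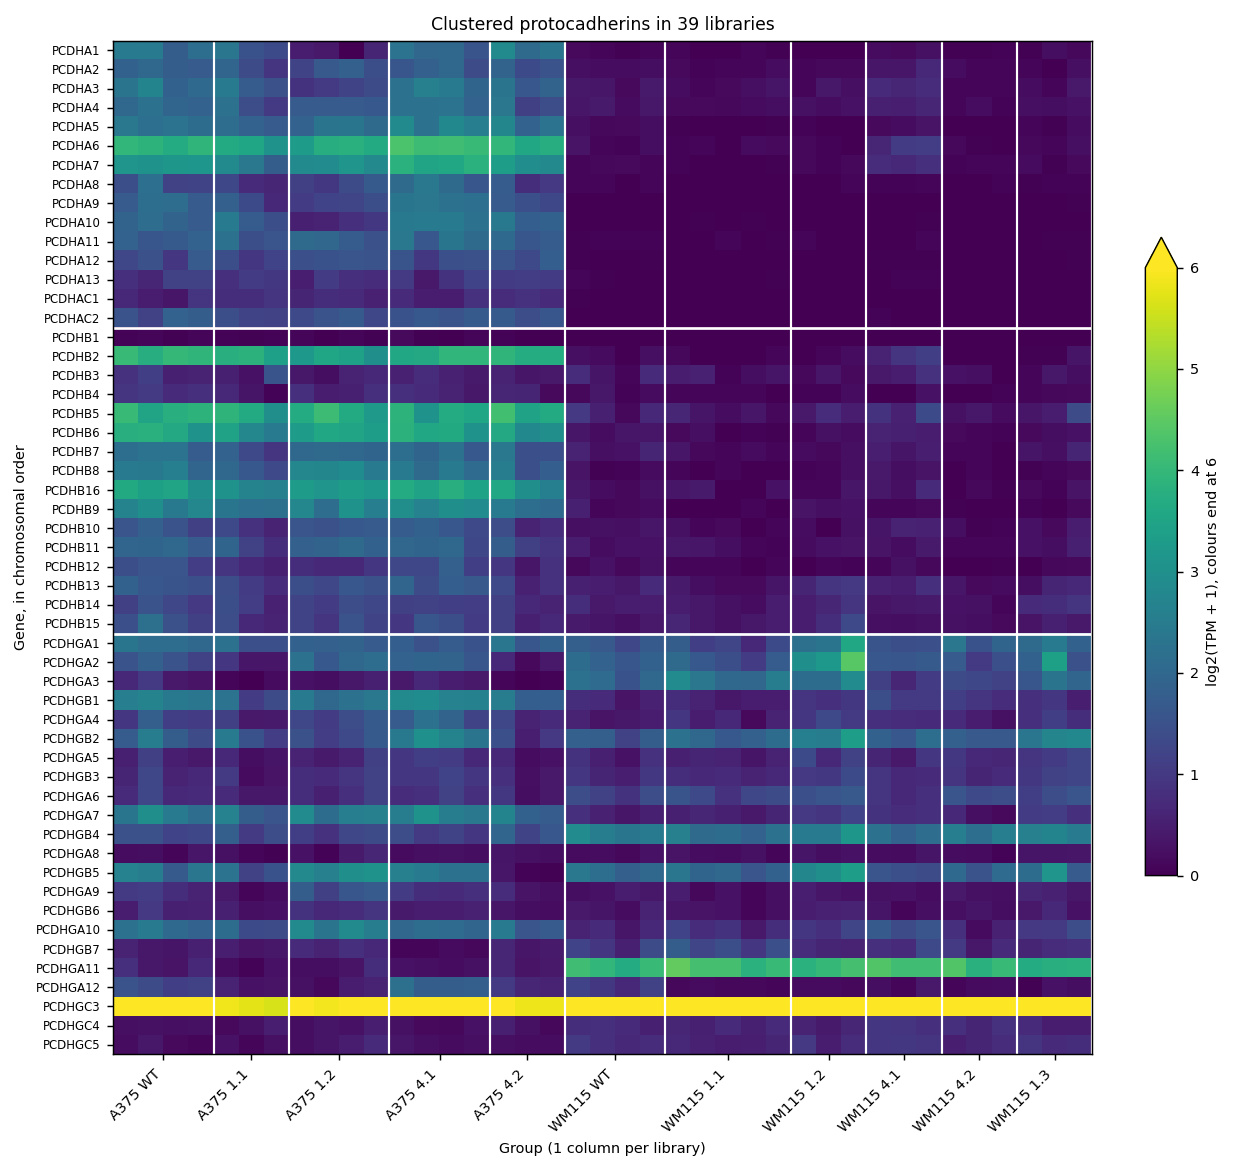
log2(TPM + 1) of the 53 members (rows, in chromosomal order, with lines between clusters) in the 39 libraries (columns, grouped); colours end at 6, which PCDHGC3 exceeds in most libraries. The dark block marks alpha and beta members in WM115, and the PCDHGC3 row is bright in all libraries.

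The C-type members differed in level. PCDHGC3 was the main gamma transcript in every library of both lines, at 48.7 to 94.7 TPM in A375 and 115 to 229 TPM in WM115, which was 58.4% to 80.0% of the gamma sum in A375 and 60.1% to 85.7% in WM115. PCDHAC2 was at 2.06 ± 0.631 TPM (SD, n = 4) in A375 WT and listed at 0 in all 4 WM115 WT libraries. PCDHAC1, PCDHGC4 and PCDHGC5 were low: PCDHAC1 ran from 0.290 to 0.901 TPM in A375, and PCDHGC4 and PCDHGC5 did not exceed 0.924 and 1.03 TPM in any WM115 library.

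PCDHGC3 differed little between clones and WT. In A375 WT it was at 75.8, 76.3, 62.5 and 74.5 TPM, and in clone 1.1 at 57.5, 52.8 and 48.7 TPM. All 3 clone libraries lay below the lowest WT library, but the log2 difference of -0.44 (SE 0.15) did not pass (limma adjusted p = 0.269). In WM115 WT it was at 221, 229, 183 and 176 TPM and in clone 1.2 at 142, 130 and 143 TPM. Again the groups did not overlap, and the log2 difference of -0.54 (SE 0.15) had a limma adjusted p of 0.0162 but was smaller than the 1 log2 unit required of a call. In WM115 clone 1.3 its log2 difference was -0.49 (SE 0.15, limma adjusted p = 0.143). Without the 2 libraries that stood apart the differences of PCDHGC3 were -0.56 in clone 1.2 (limma adjusted p = 0.0346) and -0.34 in clone 1.3 (limma adjusted p = 0.446). No C-type member was called in any comparison below.

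A member was counted as on in a group when its TPM was at least 1 in every library, as off when it was below 1 in every library, and as mixed otherwise. By this rule 35 members were on in A375 WT, 8 off and 10 mixed. WM115 WT had 8 on, 41 off and 4 mixed. Across all 5 A375 groups 17 members stayed on and 8 stayed off. The 17 were PCDHA4, PCDHA5, PCDHA6, PCDHA7, PCDHA11 and PCDHAC2 in alpha, PCDHB2, PCDHB5, PCDHB6, PCDHB8, PCDHB9 and PCDHB16 in beta, and PCDHGA1, PCDHGA7, PCDHGA10, PCDHGB1 and PCDHGC3 in gamma. Across all 6 WM115 groups 6 members stayed on (PCDHGA2, PCDHGA11, PCDHGB2, PCDHGB4, PCDHGB5 and PCDHGC3) and 31 stayed off, 14 of them alpha and 13 beta. Thus a core of each line's pattern was common to WT and all clones. The remaining 28 members in A375 and 16 in WM115 did not keep 1 state throughout. Among them 7 in A375 and 3 in WM115 were on in 1 group and off in another group of the same line. The others were mixed in at least 1 group.

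Few members switched between a clone and its WT by this rule, and the counts are a description without a test. A member that crossed the threshold in only some libraries counted as mixed. By the group mean more members switched in every clone. In A375, 3 members went from on in WT to off in clone 1.1 (PCDHB12, PCDHGA2 and PCDHGA12), beside 0.311% of all protein-coding genes that switched either way. In clone 1.2, 4 did so (PCDHA1, PCDHA10, PCDHB12 and PCDHGA12; all protein-coding genes 0.751%). In clone 4.2, 3 did so (PCDHB12, PCDHGA2 and PCDHGB5; all protein-coding genes 0.341%), and in clone 4.1 none did (0.245%). No member went from off in WT to on in an A375 clone at this threshold. In WM115, clone 4.1 gained PCDHGA10 and PCDHGB1 (all protein-coding genes 1.16%). No member switched in WM115 clones 1.1 (0.711%), 1.2 (1.05%), 4.2 (0.811%) or 1.3 (0.29%). In each clone where members switched, their share of the family was above the share of all protein-coding genes. Those shares had no filter on level, so they include genes low in every library and are not a matched background. Single libraries set some of these counts: without library 1 there were 6 switches in A375 clone 1.1 and 10 in A375 clone 4.2. In WM115 clone 1.2 there was 1 without library 1 and there were 2 without library 2, and in clone 1.3 there were 3 without library 1 and 1 without library 3.

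Most of these switches crossed the threshold narrowly. PCDHB12, a beta member, was at 1.70, 1.98, 2.01 and 1.14 TPM in A375 WT and at most 0.945 TPM in each library of clones 1.1, 1.2 and 4.2, where its means were 0.641, 0.713 and 0.677 TPM. Its differences from WT were under 1 log2 unit in all 3 clones. With 0.5 TPM as the threshold PCDHGB5 in A375 clone 4.2 was the only one of the 12 switches left, and with 2 TPM PCDHA1, PCDHA10 and PCDHGB5 were left. By the 1 TPM rule most of the 53 members had the same state in clone and WT or were mixed in 1 of them. The clones are described below by single members that moved.

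The test used limma on log2(TPM + 1) over all genes of a line with 1 TPM or more in 3 or more libraries, and a gene was called at an adjusted p under 0.05 with a difference of at least 1 log2 unit. This filter passed 42 members in A375 (14 of 15 alpha members, all but PCDHAC1) and 16 in WM115, all of them gamma. A member can pass through 1 clone in which it is high, so counts over these members are not counts over the family. Counts at an unadjusted limma p under 0.05 below have no share of all genes beside them, as none was counted at that level.

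Members whose clone libraries all lay above or all below WT were counted, first among those tested. In A375 the counts were 0 above and 10 below in clone 1.1 (all genes 2.7% and 4.71%), 1 and 9 in clone 1.2 (8.5% and 5.33%), 5 and 1 in clone 4.1 (3.86% and 3.27%) and 0 and 5 in clone 4.2 (3.49% and 3.03%). In WM115 they were 0 and 0 in clone 1.1 (7.05% and 16.5%), 10 and 1 in clone 1.2 (15.2% and 13.2%), 3 and 3 in clone 4.1 (13.8% and 23.1%), 0 and 1 in clone 4.2 (11.5% and 20.7%) and 6 and 1 in clone 1.3 (4.42% and 7.08%). Without the 2 libraries that stood apart they were 10 and 1 in clone 1.2 (17.3% and 15.3%) and 6 and 1 in clone 1.3 (6.71% and 11.3%). Over all 53 members, most of them near 0 in WM115, the counts above and below were 0 and 13, 2 and 9, 5 and 3, and 0 and 8 in A375 clones 1.1, 1.2, 4.1 and 4.2. In WM115 clones 1.1, 1.2, 4.1, 4.2 and 1.3 they were 0 and 7, 11 and 6, 12 and 4, 0 and 16, and 7 and 2. The shares of all genes above cover only genes that passed the filter. No share without the filter was counted, so the counts over all 53 members have no background to be read against.

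**Figure D3:**
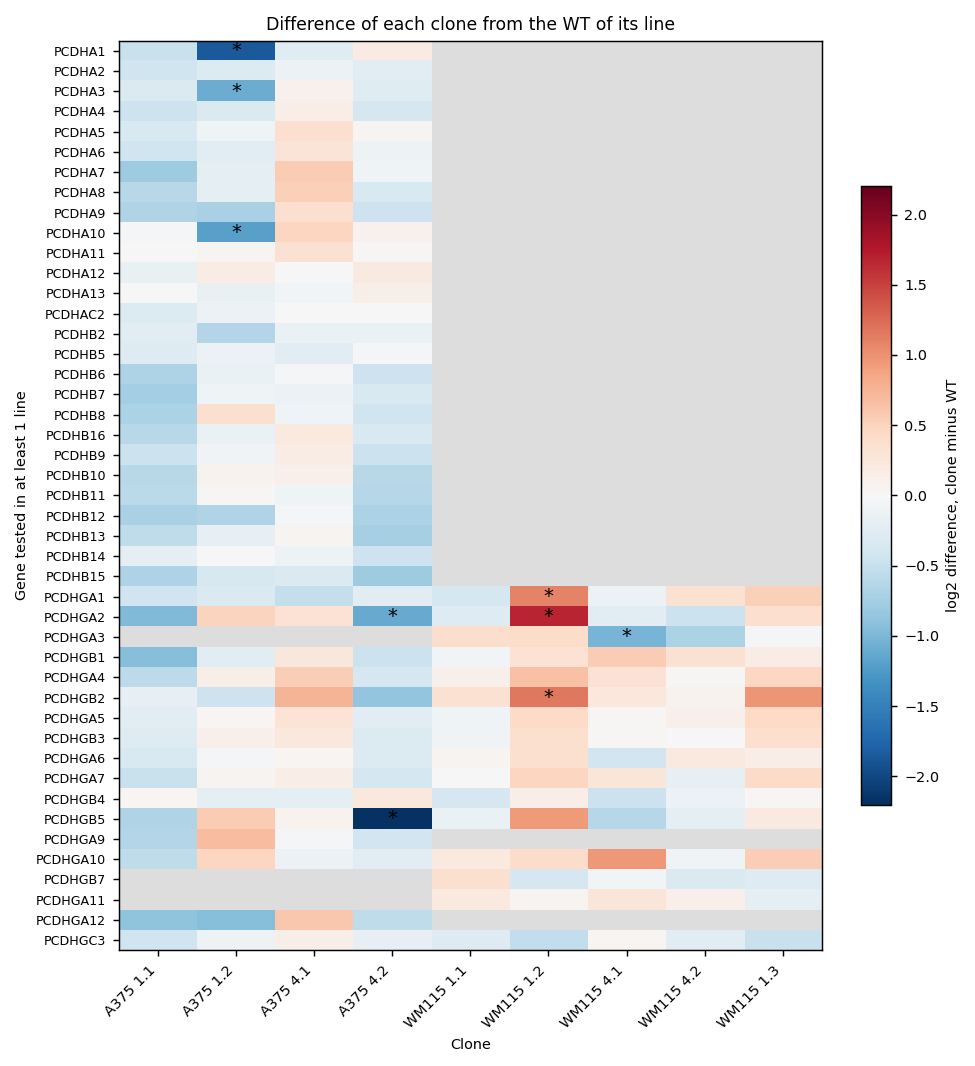
log2 difference, clone minus WT of the same line, on the log2(TPM + 1) scale for each member tested in at least 1 line (rows, chromosomal order) in the 9 clones (columns); stars mark the calls and grey marks members not tested in that line. Calls are few and fall on different members in different clones, and the columns of A375 clones 1.1 and 4.2 are mostly blue.

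In A375 clone 1.2 (R1) 3 alpha members fell. PCDHA1, the first alternate member of the alpha array (ENSG00000204970, 140786136 to 141012347), was at 4.63, 4.55, 2.41 and 3.53 TPM in WT and at 0.404, 0.335, 0 and 0.545 TPM in clone 1.2, where it was listed at 0 in library 3. Every library of the clone lay below every WT library. The log2 difference was -1.85 (SE 0.25, limma adjusted p = 1.5e-04). PCDHA10 (ENSG00000250120, 140855883 to 141012344) was at 2.77, 3.44, 2.77 and 2.31 TPM in WT and at 0.452, 0.515, 0.749 and 0.958 TPM in the clone, again without overlap. The log2 difference was -1.20 (SE 0.20, limma adjusted p = 0.00111). PCDHA3 was at 3.92, 5.50, 2.61 and 3.13 TPM in WT and at 0.826, 1.03, 1.35 and 1.65 TPM in the clone, a log2 difference of -1.09 (SE 0.24, limma adjusted p = 0.00758) that fell under 1 log2 unit without WT library 2 (-0.93).

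These 3 were the members called in A375 clone 1.2, all lower, of 42 tested; 4.01% of all 16692 genes were called there (2.57% higher and 1.44% lower). No other alpha member was called, but 2 of those not called also lay wholly below WT. PCDHA4 was at 2.28, 2.28, 2.30 and 2.16 TPM in the clone and at 2.73 to 3.71 TPM in WT, and PCDHA9 was at 1.08, 1.3, 1.39 and 1.70 TPM and at 2.31 to 3.51 TPM in WT. The alpha sum was 33.0 to 42.8 TPM in the clone and 48.9 to 58.2 TPM in WT, without overlap. PCDHA6 was at 14.7, 13.8, 11.9 and 14.3 TPM in WT and at 9.0, 12.2, 13.0 and 11.8 TPM in the clone, and PCDHA11 was at 2.72, 2.04, 2.24 and 2.7 TPM in WT and at 3.21, 2.95, 2.35 and 1.82 TPM. Both overlapped with WT. In the gamma array PCDHGA9 was at 1.04, 1.15, 0.737 and 0.478 TPM in WT and at 2.42, 1.21, 2.02 and 2.28 TPM in clone 1.2, above WT in all 4 libraries but under the required difference (log2 0.68, SE 0.18, limma adjusted p = 0.0256). The median log2 difference of the members tested was -0.14, beside 0.07 for all genes. Among 4 fibroblast markers COL1A1 and LUM were called higher in this clone, and the list summed to 10.1 to 14.2 TPM beside 3.02 to 6.47 TPM in WT; the melanoma list summed to 579 to 769 TPM beside 1031 to 1829 TPM in WT, with S100A1 called lower. Their part in these results was not tested.

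In A375 clone 4.2 (R4) PCDHGB5 and PCDHGA2 fell. PCDHGB5, an alternate gamma member of the B subfamily (ENSG00000276547, 141397987 to 141512979), was at 5.30, 4.81, 2.24 and 4.13 TPM in WT and at 0.278, 0.037 and 0.019 TPM in clone 4.2. The groups lay far apart, and the log2 difference of -2.17 (SE 0.26, limma adjusted p = 1.6e-04) was larger in size than that of any other member called against WT. PCDHGA2 (ENSG00000081853, 141338760 to 141512979) was at 1.91, 2.60, 1.91 and 1.24 TPM in WT and at 0.63, 0.103 and 0.326 TPM in clone 4.2, without overlap. Its log2 difference was -1.11 (SE 0.21, limma adjusted p = 0.0159), and the adjusted p rose above 0.05 when any 1 of WT libraries 1, 2 and 3 or of clone libraries 2 and 3 was left out (0.0527 to 0.167). These 2 were the calls among 42 members tested, beside 0.473% of all genes (0.108% higher and 0.365% lower).

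In the R4 clone 4.1 of A375 no member was called, beside 0.653% of all genes (0.246% higher and 0.407% lower), and 6 members had an unadjusted p under 0.05, 5 higher and 1 lower. PCDHGA12 was at 3.67, 2.41, 2.43 and 2.51 TPM in this clone and at 1.91, 1.57, 1.17 and 1.28 TPM in WT. All clone libraries were above WT, with a log2 difference of 0.59 (SE 0.17, limma adjusted p = 0.113). PCDHA7 was at 13.2, 10.3, 10.9 and 13.3 TPM in the clone and at 7.69, 7.32, 7.99 and 7.86 TPM in WT, also without overlap, with a log2 difference of 0.56 (SE 0.19, limma adjusted p = 0.210). Among the 42 members tested 5 lay above WT in every library and 1 below it, beside 3.86% and 3.27% of all genes.

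A375 clone 1.1 (R1) had most members slightly below WT and no call, beside 0.731% of all genes called (0.186% higher and 0.545% lower). Of the 42 members tested 40 had a difference below 0, with a median of -0.48 beside 0.01 for all genes. An unadjusted limma p under 0.05 was seen in 22, all lower, and the share of all genes at that level was not counted. With quantile normalization 38 of 42 were below 0. PCDHGA2 was at 0.920, 0.289 and 0.283 TPM in the clone, below every WT library, with a log2 difference of -0.97 (SE 0.21, limma adjusted p = 0.0320). PCDHGA12 was at 0.513, 0.234 and 0.251 TPM, also below every WT library, with a log2 difference of -0.89 (SE 0.18, limma adjusted p = 0.0215). Both missed the required 1 log2 unit. Without library 1 of clone 1.1, 3 members were called, and without WT library 4, 1 was.

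In clone 4.2, 35 of 42 members were below 0 with a median of -0.34 beside 0.06 for all genes. The libraries of clones 1.1 and 4.2 varied together by replicate number (correlations of their deviations over all genes 0.435 to 0.740 over 3 pairs), and the clones share the WT libraries, so the 2 medians are not independent. In both clones library 1 was the highest: the alpha sum was 53.9 TPM in library 1 of clone 1.1 and 35.5 and 26.6 TPM in libraries 2 and 3, and it was 65.2 TPM in library 1 of clone 4.2. The mitochondrial share was 1.41%, 3.43% and 1.42% in libraries 1, 2 and 3 of clone 1.1 and 1.56%, 2.78% and 1.91% in those of clone 4.2. Within the libraries of low mitochondrial share (at most 2.5%) the medians were -0.50 in clone 1.1 and -0.21 in clone 4.2.

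Clones with the same region deleted were then compared with each other. Between A375 clones 1.1 and 1.2 the limma fit called 7 members, beside 6.16% of all genes (1.47% higher and 4.68% lower in clone 1.1). PCDHA1 (log2 difference 1.35, adjusted p = 0.00370) and PCDHA10 (1.15, adjusted p = 0.00250) were higher in clone 1.1. PCDHGA2 (-1.46, limma adjusted p = 2.0e-04), PCDHGA9 (-1.33, adjusted p = 2.6e-04), PCDHGB5 (-1.21, adjusted p = 0.00515), PCDHB8 (-1.06, adjusted p = 0.00906) and PCDHGA10 (-1.04, adjusted p = 0.00849) were lower in clone 1.1. PCDHGA2 was at 0.920, 0.289 and 0.283 TPM in clone 1.1 and at 3.72, 2.16, 3.09 and 3.39 TPM in clone 1.2. PCDHGA9 was at 0.333, 0.0510 and 0.143 TPM in clone 1.1 and at 2.42, 1.21, 2.02 and 2.28 TPM in clone 1.2. PCDHB8, a beta member, was at 3.07, 2.14 and 1.51 TPM in clone 1.1 and at 5.85, 5.77, 6.53 and 4.50 TPM in clone 1.2. The clones did not overlap for any of these 3 genes. PCDHGA10 was at 3.32, 1.53 and 1.61 TPM in clone 1.1 and at 6.24, 3.97, 6.37 and 4.84 TPM in clone 1.2, also without overlap. For PCDHGA2 clone 1.1 lay below every WT library, while clone 1.2 overlapped with WT.

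Between A375 clones 4.1 and 4.2, 4 members were called, all higher in clone 4.1, beside 2.23% of all genes (1.28% higher and 0.953% lower). PCDHGB5 was at 5.16, 4.56, 3.72 and 3.72 TPM in clone 4.1, each more than the 0.278 TPM that was the highest value in clone 4.2, with a log2 difference of 2.25 (SE 0.26, limma adjusted p = 6.4e-05). PCDHGB2, another gamma B member, was at 4.33, 7.08, 5.44 and 3.96 TPM in clone 4.1 and at 1.77, 0.422 and 0.979 TPM in clone 4.2. The log2 difference of PCDHGB2 was 1.62 (SE 0.32, limma adjusted p = 0.0101). PCDHGA2 (1.42, limma adjusted p = 9.7e-04) and PCDHGA12 (1.15, limma adjusted p = 0.00169) completed the calls.

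**Figure D4:**
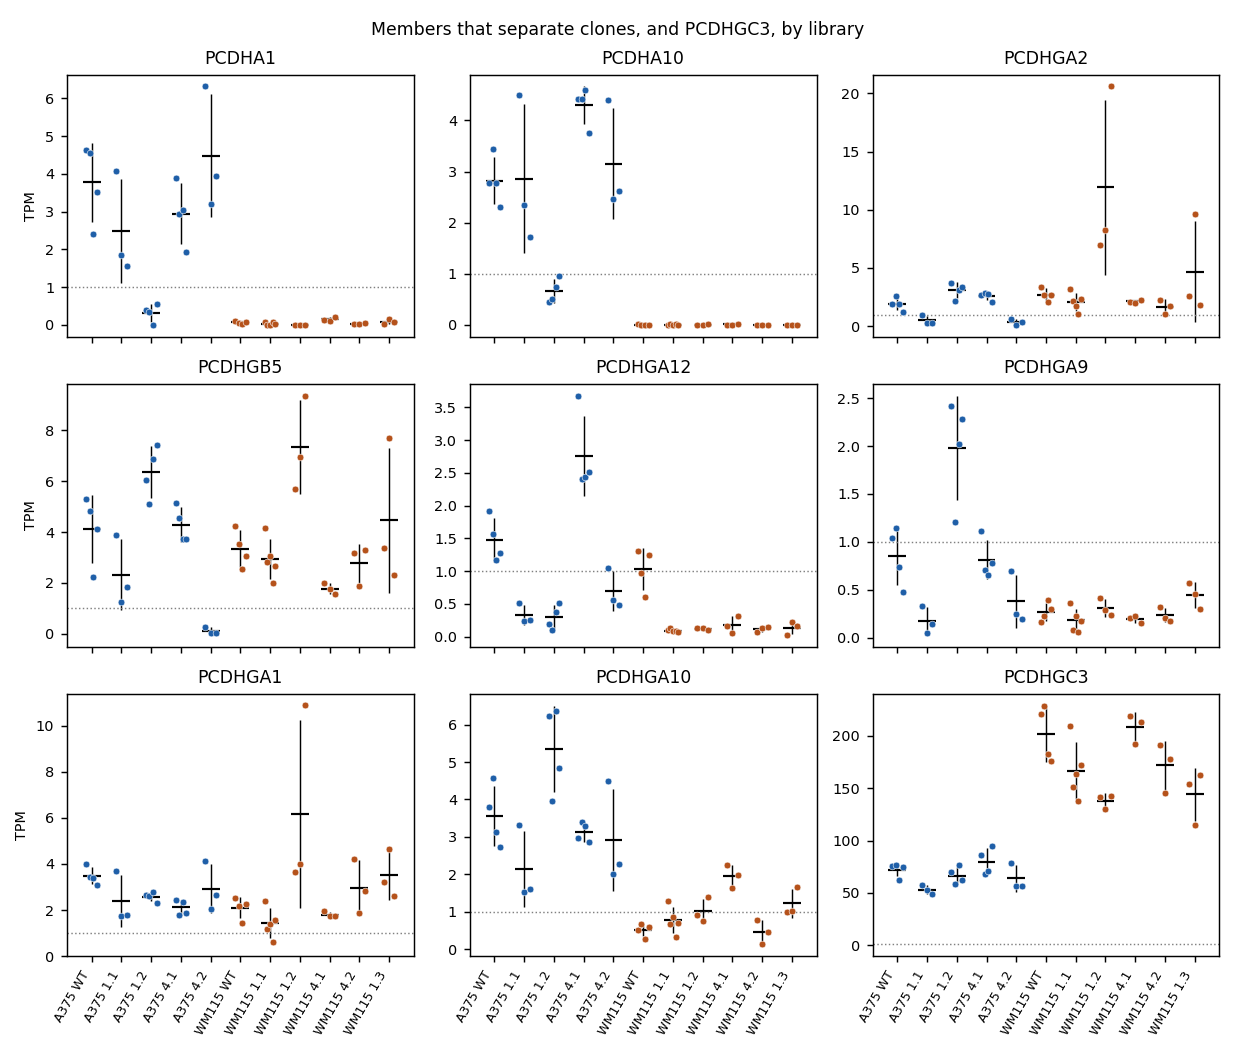
TPM (linear vertical axes) of 8 members that separated clones and of PCDHGC3 in every library (points) by group, A375 in blue and WM115 in orange; bars are group means, vertical lines are the SD and the dotted line is 1 TPM. PCDHA1 and PCDHA10 drop in A375 1.2, PCDHGB5 in A375 4.2, and PCDHGA12 is below WT in all WM115 clones.

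In WM115 clone 1.2 (R1) 3 gamma members rose. PCDHGA2 was at 3.38, 2.68, 2.04 and 2.67 TPM in WT and at 6.98, 8.23 and 20.6 TPM in the clone, whose library 3 stood far above the other two. All 3 were above WT, with a log2 difference of 1.67 (SE 0.38, limma adjusted p = 0.00609). PCDHGB2 was at 2.60, 2.52, 1.23 and 2.42 TPM in WT and at 4.99, 4.75 and 9.08 TPM in the clone, a log2 difference of 1.17 (SE 0.22, limma adjusted p = 0.00183). PCDHGA1, the first gamma member, was at 2.51, 2.17, 1.44 and 2.26 TPM in WT and at 3.66, 3.99 and 10.9 TPM in the clone, a log2 difference of 1.08 (SE 0.30, limma adjusted p = 0.0155).

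These 3 were the calls in WM115 clone 1.2 among 16 members tested, beside 7.61% of all 16997 genes (4.49% higher and 3.11% lower). Of the 16, 10 lay above every WT library and 1 (PCDHGC3) below, beside 15.2% and 13.2% of all genes. Without library 3 of clone 1.2 and library 2 of clone 1.3, PCDHGA2 was the 1 call left (log2 difference 1.23, limma adjusted p = 0.00500), PCDHGB2 was at 0.91 and PCDHGA1 at 0.65. Without library 3 of clone 1.2 alone no member was called (PCDHGA2 1.23, limma adjusted p = 0.0642). Melanoma markers moved with this clone: the list of 10 summed to 1685 to 3928 TPM in WT and to 75.3 to 1531 TPM in clone 1.2, and 6 of 10 were called lower. The neuron list summed to 11.4 to 23.9 TPM in clone 1.2; of its 5 genes SNAP25, a synaptic protein, was called higher, while STMN2 was listed at 0 in all 3 libraries. The part of these shifts in the gamma rise was not tested.

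Library 2 of clone 1.3 was high for PCDHGA2 and PCDHGB5. PCDHGA2 was at 2.62, 9.66 and 1.79 TPM in libraries 1, 2 and 3 of clone 1.3, and PCDHGB5 at 3.38, 7.69 and 2.33 TPM. In libraries 1 and 3 these levels overlapped with or lay below those of WT. No member was called in clone 1.3 (beside 0.618% of all genes, 0.424% higher and 0.194% lower), where 7 had an unadjusted p under 0.05, 6 higher and 1 lower. PCDHGB2, at 4.09, 5.59 and 5.95 TPM, was above WT in all 3 libraries of clone 1.3, with a log2 difference of 0.97 (SE 0.22, limma adjusted p = 0.0343), just under the required size. Without the 2 libraries that stood apart it was 0.92 (SE 0.22, limma adjusted p = 0.0661), and of 12 members then tested 2 were higher and 1 lower at an unadjusted p under 0.05.

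In WM115 clone 4.1 (R4) PCDHGA3 fell. PCDHGA3 was at 3.80, 3.27, 1.85 and 3.07 TPM in WT and at 1.2, 0.562 and 1.11 TPM in clone 4.1, without overlap. Its log2 difference was -1.02 (SE 0.25, limma adjusted p = 0.00749). It was the 1 call among 16 members tested in this clone, beside 7.57% of all genes (3.2% higher and 4.37% lower). As a share, 1 call of 16 is not above that 7.57%. PCDHGA10 (ENSG00000253846, 141412987 to 141512979) was at 0.517, 0.677, 0.283 and 0.602 TPM in WT and at 2.25, 1.64 and 1.97 TPM in the clone. The groups did not overlap, and the log2 difference of 0.96 (SE 0.20, limma adjusted p = 0.00215) was just under the required size. With median-of-ratios scaling the calls changed: PCDHGA10 was called at 1.02 and PCDHGA3, at -0.93, was not. Without WT library 1 no member was called. PCDHGB1 was at 1.71, 1.04 and 1.01 TPM in the clone and at 0.251 to 0.716 TPM in WT. In this clone 6 of the 10 melanoma markers were called lower, and the list summed to 1171 to 1662 TPM beside 1685 to 3928 TPM in WT; the part of this shift was not tested.

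Clone 4.1 was also the WM115 group with the highest alpha level. Its alpha sums were 3.04, 3.34 and 4.41 TPM, and all other WM115 libraries lay between 0.286 and 1.66 TPM. PCDHA6 was at 0.569, 1.1 and 1.13 TPM in clone 4.1 and at 0.0440 to 0.253 TPM in WT. PCDHA7 was at 0.688, 0.585 and 0.746 TPM and at 0.0800 to 0.104 TPM in WT, and PCDHB2 at 0.523, 0.873 and 1.17 TPM and at 0 to 0.180 TPM in WT. None of the 3 overlapped with WT. These members were too low for the main filter. In a limma fit of log2(TPM + 0.1) without a filter, chosen after seeing the data, their log2 differences were 2.18 for PCDHA6 (adjusted p = 0.00168), 2.01 for PCDHA7 (adjusted p = 2.2e-05) and 2.17 for PCDHB2 (adjusted p = 0.00429). These 3 were picked after their values were seen. PCDHB5 (0.471 to 1.54 TPM in the clone, 0.0960 to 0.993 TPM in WT) and PCDHB16 (0.183 to 0.649 TPM and 0.0940 to 0.313 TPM) overlapped with WT, and PCDHB9 had means of 0.0857 TPM in the clone and 0.181 TPM in WT.

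No member was called in WM115 clone 1.1 (beside 4.88% of all genes, 1.22% higher and 3.66% lower) or in clone 4.2 (beside 6.6%, 2.52% higher and 4.08% lower), and 2 and 1 members had an unadjusted p under 0.05. The unfiltered limma fit of log2(TPM + 0.1) called 4 members lower in clone 1.1, PCDHA5 (-1.03, adjusted p = 0.00550), PCDHB6 (-1.13, adjusted p = 0.0279), PCDHB9 (-1.13, adjusted p = 0.0148) and PCDHGA12. In clone 4.2 it called 5 lower, PCDHA5 (-1.22, limma adjusted p = 0.00571), PCDHB7 (-1.61, adjusted p = 0.0146), PCDHB9 (-1.25, adjusted p = 0.0199), PCDHB12 (-1.17, adjusted p = 0.0270) and PCDHGA12. All of these were below 1 TPM in the clone, and all but PCDHGA12 were already near 0 in WT. The highest of those in WT was PCDHB7, at 0.187 to 0.529 TPM. The shares of all genes above belong to the main fit, and none is given for the unfiltered fit, so its counts have no background. The alpha sum in clone 4.2 was 0.367 ± 0.0742 TPM (SD, n = 3) beside 1.26 ± 0.400 TPM in WT, and the groups did not overlap. This was not particular to clone 4.2. In clone 1.2 the sum was 0.603 to 0.705 TPM, also below the lowest WT library (0.73 TPM). Clone 1.1, at 0.333 to 0.851 TPM, overlapped with WT, and all these sums are near 0. Between clones 4.1 and 4.2 the 1 call was PCDHGA10, higher in clone 4.1 (log2 difference 1.04, SE 0.21, limma adjusted p = 0.00499), beside 2.63% of all genes (1.82% higher and 0.806% lower), and it was lost without library 1 of clone 4.1 or library 2 of clone 4.2. Between clones 1.1 and 1.2, 3 members were called lower in clone 1.1, beside 11.8% of all genes (3.25% higher and 8.51% lower). These were PCDHGA2 (-1.96, limma adjusted p = 5.3e-04), PCDHGA1 (-1.47, adjusted p = 7.3e-04) and PCDHGB5 (-1.08, adjusted p = 0.00311). Without the 2 libraries that stood apart PCDHGA2 (-1.51) and PCDHGA1 (-1.03) were called and PCDHGB5 (-0.91) was not.

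PCDHGA12 lay below every WT library in all libraries of all 5 WM115 clones. It is the last alternate gamma member before the C-type genes (ENSG00000253159, 141430589 to 141512979). In WM115 WT it was at 1.31, 0.966, 0.608 and 1.25 TPM. In the 5 libraries of clone 1.1 it was at 0.101, 0.126, 0.0880, 0.0910 and 0.0650 TPM, and in clone 1.2 at 0.137, 0.135 and 0.0980 TPM. In clone 4.1 it was at 0.168, 0.0510 and 0.320 TPM, in clone 4.2 at 0.0710, 0.129 and 0.151 TPM, and in clone 1.3 at 0.0310, 0.223 and 0.162 TPM. All 17 clone libraries lay below the lowest WT library. Of the genes that passed the filter, 16.5%, 13.2%, 23.1%, 20.7% and 7.08% lay wholly below WT in clones 1.1, 1.2, 4.1, 4.2 and 1.3. How many genes did so in all 5 clones was not counted, so the pattern cannot be called particular to PCDHGA12.

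The gene did not pass the filter in WM115, and it was singled out after its values were seen. Without the filter the limma log2 differences of PCDHGA12 lay between -0.88 and -0.78 in the 5 clones, with adjusted p from 1.1e-05 to 3.1e-04, all under the required 1 log2 unit. With a pseudocount of 0.1 and no filter they lay between -2.50 and -2.09 (limma adjusted p from 1.1e-04 to 0.00556). All 5 comparisons use the same 4 WT libraries. In A375 clone 1.2 PCDHGA12 was at 0.200, 0.0980, 0.382 and 0.514 TPM, below every WT library, and in clone 4.2 at 1.04, 0.558 and 0.477 TPM. Its log2 differences from A375 WT were -0.89 in clone 1.1, -0.94 in clone 1.2 (limma adjusted p = 0.00182), -0.56 in clone 4.2 (limma adjusted p = 0.400) and 0.59 in clone 4.1, so the direction was not the same in all A375 clones.

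No member that could be tested separated the deleted regions. With the clone as the unit, 8 clones and the line as a covariate, 13 members, all gamma, were tested between R1 and R4. No alpha or beta member was tested, because none passed the filter in WM115. None was called by limma, 0% of all 15287 genes were, and 0 members had an unadjusted p under 0.05. PCDHGC3 had a log2 difference, R1 minus R4, of -0.29 (SE 0.14, limma adjusted p = 0.996), and PCDHGA2 of 0.60 (SE 0.53, limma adjusted p = 0.996). PCDHGB5 had the largest difference of the 13, 0.90 (SE 0.50, limma adjusted p = 0.996). No interaction of region and line passed for any of the 13. With 4 clones a region this fit has little precision for single members.

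Over the members, most A375 libraries were nearest to a library of their own group. The library most like a given library over the 42 members, by Pearson's r on log2(TPM + 1), belonged to the same group for 17 of 18 A375 libraries; WT library 2 was the exception and was nearest to a library of clone 4.1. Over all 16692 genes tested the nearest library was of the same group for 9 of 18. In WM115 the same count was 16 of 21 over the 16 members and 16 of 21 over 16997 genes, and the 3 libraries of clone 1.2 were all nearest to library 2 of clone 1.3. Without the 2 libraries that stood apart it was 18 of 19 over members and 17 of 19 over all genes. The correlation between A375 libraries of 1 group had a median of 0.971 over members and 0.973 over all genes, and between groups 0.890 and 0.953. These are descriptions across genes within shared libraries. No other gene set of like size or level was compared. Some A375 groups also varied together by replicate number, and the part of this in the all-gene count was not tested.

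No gene of the list known to act on the clusters was called. Of 25 chromatin regulators (CTCF, cohesin subunits and loaders, SMCHD1, DNA methyltransferases, TET enzymes and others), all were tested in both lines and 0 were called by limma in any clone against WT or between clones. Smaller differences passed the adjusted p alone. Against WT these were 0 in every A375 clone and in WM115 clone 1.3, and 4, 2, 3 and 3 in WM115 clones 1.1, 1.2, 4.1 and 4.2, while 1, 1, 0 and 0 regulators in A375 clones 1.1, 1.2, 4.1 and 4.2 had an unadjusted p under 0.05. In WM115 clones 1.1, 1.2, 4.1, 4.2 and 1.3 that count was 6, 6, 5, 5 and 2. RAD21, a cohesin subunit, was at 71.6 to 85.1 TPM in WM115 WT and at 105 to 146 TPM in clone 1.1, without overlap (log2 difference 0.65, SE 0.13, limma adjusted p = 0.00142). SMCHD1, a repressor of the clusters, was lower in WM115 clone 4.1 (-0.54, SE 0.14, limma adjusted p = 0.00852). CTCF, which binds protocadherin promoters and enhancers, was at 36.2 ± 14.02 TPM (SD, n = 4) in A375 WT and at 31.3 ± 6.04 TPM (SD, n = 4) in clone 1.2. SMCHD1 was at 11.9 ± 4.67 TPM (SD, n = 4) in A375 WT and at 37.8 ± 1.93 TPM (SD, n = 4) in WM115 WT. The median log2 difference of the other genes of chromosome 5 lay between -0.09 and 0.07 over the 9 clones. Of 32 genes tested within 1 Mb of the clusters, 1 or 0 was called per clone against WT, among them SPRY4, a feedback inhibitor of receptor signalling, lower in A375 clone 1.2 (log2 difference -2.41, limma adjusted p = 0.00342).

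Non-clustered protocadherins, which are single genes outside the 3 clusters, changed in some of the same clones. PCDH15, a protein of hair-cell links, was at 0.905 ± 0.244 TPM (SD, n = 4) in A375 WT and at 39.1 ± 17.4 TPM (SD, n = 3) in clone 1.1. Its log2 difference was 4.29 (SE 0.25, limma adjusted p = 3.5e-08). In A375 clone 4.2 PCDH15 was at 9.0 ± 1.55 TPM (SD, n = 3). This was 2.39 above WT on the log2 scale (SE 0.25, limma adjusted p = 4.9e-05). PCDH7 fell in A375 clone 1.2 (-2.08, limma adjusted p = 0.00181) and in WM115 clone 4.1 (-1.72, limma adjusted p = 0.0352), and PCDH20 rose in A375 clone 1.2 (1.23, limma adjusted p = 3.2e-05). Of 8 such genes tested in A375 and 5 in WM115 at most 2 were called in a clone against WT. Of the signalling partners of protocadherins, 15 tested in A375 and 14 in WM115, FYN, a kinase of the SRC family, was the 1 called against WT (WM115 clone 1.2, log2 difference -1.03, limma adjusted p = 0.0250).

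Levels of single members are uncertain where members share sequence. In GENCODE 29 the alpha members share 3 exons and the gamma members 3 exons that at least 80% of the members of the cluster contain, and the beta members share none. The share of a member's sequence windows of 75 bases found in no other member had a median of 53.5% in alpha, 91.3% in beta and 56.6% in gamma. Among beta members it was lowest in PCDHB8 (65.5%), which was called between A375 clones, and PCDHB10 (70.9%), and in alpha it was highest in PCDHA10 (81.4%). Reads from shared sequence had to be divided between members by the authors' program, and how that division moved single members was not tested. In A375 a median of 74.3% of the alpha TPM and 13.8% of the gamma TPM was assigned to transcripts of a single exon.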

How the data were processed

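RNA was measured in 39 libraries grouped by line and clone as the titles give them. The authors deposited gene and transcript tables in TPM. Per the submitters' processing notes DRAGEN and GRCh38 were used; version and settings are not given in the sources used here, and 6 value columns per table matched no sample and were not used. Read counts are not given, so depth is unknown. Per the labels' protocols, polyadenylated RNA was converted to cDNA with random hexamers; strand is not mentioned. Repeated gene lines (200) were used once.

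Values were taken as log2(TPM + 1) and fitted with limma 3.58.1 (R 4.3.3, variance trend), each line on its own with 1 coefficient per group, for genes reaching 1 TPM in 3 or more libraries. P-values are two-sided, adjusted by Benjamini-Hochberg over all genes tested. The fit was tested on simulated data. The region comparison used clone means and left out WM115 clone 1.3.

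The members and lists were chosen with earlier results of these data known. Every member may be named. Library values are given for called and switched members and C-type genes, for some groups only or as ranges. Others, such as PCDHGA12 in WM115, PCDHA6, PCDHA7, PCDHA11, PCDHB2 and PCDHB5, were picked after their values were seen. Replicate numbers paired A375 WT with clone 4.1 (correlations of deviations 0.326 to 0.776 over 4 pairs); the block changed no call there. They also paired A375 clones 1.1 and 4.2, which were not compared.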

Additional observations from a re-analysis of the deposited data

Results flagged for a closer look

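Single libraries far from the rest of their group were looked for in 19 members over 52 groups of 4 or 5 libraries with a mean of at least 1 TPM, and 3 were found, where chance gives about 1 in 20 groups. PCDHGA12 was at 3.67 TPM in library 1 of A375 clone 4.1 and at 2.41 to 2.51 TPM in the others. PCDHGB2 was at 1.23 TPM in library 3 of WM115 WT and at 2.42 to 2.60 TPM in the others. PCDHGC3 was at 62.5 TPM in library 3 of A375 WT and at 74.5 to 76.3 TPM in the others; that library had the highest mitochondrial share of A375 (4.92%), and its part was not tested.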

How the results depend on the processing

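Of 443 alternative values of the 24 member calls, 368 kept direction and threshold, 75 lost the threshold and 0 reversed; the cause was not tested except where fewer members or libraries entered. Counts of called members changed as follows. With a pseudocount of 0.1 they were 2 in A375 clone 1.1, 5 in WM115 clone 1.2, 3 in WM115 clone 4.1, 1 in WM115 clone 1.3, 8 between WM115 clones 1.1 and 1.2 and 2 between WM115 clones 4.1 and 4.2. With a mean TPM of at least 5 required, fewer members were tested and 0 were called in A375 clones 1.2 and 4.2, in WM115 clones 1.2 and 4.1 and between the clones of a region in either line. Without a filter 1 was called in A375 clone 4.2. Without a filter and with a pseudocount of 0.1 (added after seeing the data) there were 1 in A375 clone 1.1, 4 in WM115 clone 1.1, 6 in clone 1.2, 6 in clone 4.1, 5 in clone 4.2, 1 in clone 1.3, 7 between WM115 clones 1.1 and 1.2 and 10 between clones 4.1 and 4.2. Without a minimum difference there were 2 in A375 clone 1.1, 8 in A375 clone 1.2, 7 in WM115 clone 1.2, 3 in WM115 clone 4.1, 1 in WM115 clone 1.3, 10 between WM115 clones 1.1 and 1.2 and 2 between clones 4.1 and 4.2. Fitting only the 2 groups left 1 in A375 clone 4.2. Within the low mitochondrial set 1 was called in A375 clone 4.2, 0 between A375 clones 1.1 and 1.2 and 1 between clones 4.1 and 4.2. With the mitochondrial set as a term 0 were called between WM115 clones 4.1 and 4.2. Without the 2 WM115 libraries that stood apart (added after seeing the data) 1 was called in clone 1.2. The shares of all genes called under these settings are not given, so these counts have no background beside them.

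With the replicate block 0 were called in A375 clone 4.2, 3 between A375 clones 1.1 and 1.2, and 0 between A375 clones 4.1 and 4.2, in WM115 clones 1.2 and 4.1 and between WM115 clones of a region; in these the groups share only replicate numbers.

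Counts of switched members were, at 0.5 TPM, 0, 1 and 1 in A375 clones 1.1, 1.2 and 4.2 and 1, 1, 5, 1 and 1 in WM115 clones 1.1, 1.2, 4.1, 4.2 and 1.3. At 2 TPM they were 0, 1 and 1 in A375 clones 1.1, 4.1 and 4.2 and 0 in WM115 clone 4.1. By the group mean they were 7, 1 and 10 in A375 clones 1.1, 4.1 and 4.2 and 1, 7, 6, 2 and 5 in the WM115 clones in the same order.

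Leaving out 1 library at a time, called members ranged from 0 to 3 in A375 clone 1.1, 2 to 4 in clone 1.2, 1 to 2 in clone 4.2, 5 to 7 between clones 1.1 and 1.2 and 3 to 6 between clones 4.1 and 4.2. In WM115 they ranged from 0 to 4 in clone 1.2, 0 to 1 in clone 4.1, 2 to 3 between clones 1.1 and 1.2 and 0 to 1 between clones 4.1 and 4.2. Switched members ranged from 3 to 6 in A375 clone 1.1, 3 to 10 in A375 clone 4.2, 0 to 2 in WM115 clone 1.2, 2 to 3 in clone 4.1 and 0 to 3 in clone 1.3. Depth is unknown, so no limit from counting can be given for members near 0.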
